A study of Mus musculus with 6 samples.

Results

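Fibroblast growth factor (FGF) ligands, their receptors and the feedback inhibitors that their signal turns on were followed in MC3T3-E1 osteoblasts (OBs) grown with or without ascorbic acid (AA). The 10 genes were 4 receptors (Fgfr1, Fgfr2, Fgfr3 and Fgfrl1), 2 ligands (Fgf2 and Fgf7) and 4 feedback genes (Spry1, Spry2, Spry4 and Dusp6). Every probe set whose gene symbol on the Affymetrix Mouse Genome 430 2.0 array names such a gene was taken, which gave 21 of 45037 probe sets tested, and none of the 21 names a further gene. MC3T3-E1 subclone 4 is a mouse calvarial pre-osteoblastic line, a single clone without any engineered allele named in the labels, cultured in α-MEM with heat-inactivated serum. Control cultures (n = 3) were left untreated for 5 days and AA cultures (n = 3) received AA at 50 µg, which the paper's methods give per ml, for 5 days. The comparison asks which transcripts change when these cells are stimulated with AA.

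FGFs are secreted ligands that bind tyrosine kinase receptors together with heparan sulfate on the cell surface, and the activated receptor signals through Ras to the kinase ERK. ERK signalling induces its own inhibitors, among them the Sprouty proteins, which act upstream on the Ras pathway, and Dusp6, a phosphatase that inactivates ERK. In calvarial bone, Fgfr1 and Fgfr2 are the FGF receptors best known for the control of osteoblast proliferation and differentiation, and activating mutations of FGF receptors cause premature fusion of skull sutures.

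The values are linear signals named MAS5 in the submitters' processing notes, with a trimmed mean of 150 on each array. Tests used limma on log2 signals after quantile normalization between arrays, blocked on the replicate number, with Benjamini-Hochberg adjustment across the whole array, and a probe set was called at an adjusted p under 0.05. Signals are quoted as deposited and log2 fold changes, AA over control, come from the normalized values. The median signal of all probe sets was 14.9 to 17.7 on the control arrays and 16.2 to 16.9 on the AA arrays. Control replicate 3 stood apart in its actin signal at the 3' relative to the 5' end, a sign of RNA quality, at 1.79 against 1.35 to 1.45 on the other arrays. Of 8 measured osteoblast markers 6 lay above the median by their mean log2 signal over the 6 arrays, among them Col1a1, Alpl, Ibsp and Sp7, and Runx2 and osteocalcin were not analysed here. Phex and Dmp1, which mark later stages, lay below it by that mean, although Dmp1 went from a mean of 6.41 in control to 31.2 in AA cultures (limma adjusted p = 0.261). The osteoblast list summed to 23359 to 27567 in control and 27889 to 34896 in AA cultures, without overlap. That sum of deposited signals is mostly Sparc, Col1a2 and Col1a1. Their log2 fold changes were -0.02, 0.04 and 0.11, and none passed (limma adjusted p of 0.417 to 0.941). Of the list, Ibsp rose from 1631 to 4807 (limma adjusted p = 0.000549) and Alpl from 120.1 to 339 (adjusted p = 0.000464). Sp7 did not pass (0.29, adjusted p = 0.235). None of 5 endothelial, 1 of 5 adipocyte, 1 of 5 epithelial, 2 of 6 muscle and 3 of 6 macrophage markers lay above that median. Of the macrophage markers, Csf1r, Cd14 and Lyz2 lay above it and Ptprc, Adgre1 and Cd68 below it. The summed ranges of control and AA cultures overlapped for the endothelial, adipocyte, epithelial, muscle and macrophage lists. Among the endothelial genes, Vwf, below the median, fell from a mean of 5.35 to 0.499 (limma adjusted p = 0.0441). In the macrophage list, whose sum is mostly Lyz2 (378 and 324), Csf1r rose from 24.5 to 87.4, a log2 fold change of 1.81 (limma adjusted p = 0.00168). The summed signal of the neural list was 194 to 244 in control and 338 to 418 in AA cultures, with 2 of its 5 genes above the median. Of these, Tubb3 rose from a mean of 169 to 335 (limma adjusted p = 0.00124). Map2 went the other way, from 31.1 to 27.9, and did not pass (adjusted p = 0.734). The chondrocyte list summed to 342 to 405 in control and 438 to 542 in AA cultures, with 2 of its 6 genes above the median. Of these, Col2a1 rose from 138 to 306 (limma adjusted p = 0.00352). Sox9 went the other way, from 220.4 to 169, and did not pass (adjusted p = 0.283). The part of these lists in the results below was not tested.

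In AA cultures Fgfr1 rose, and Fgfr2 and Fgf7 fell, by the brightest probe set of each gene, while the other 7 genes did not pass. Of the 21 probe sets, 2 were higher (both of Fgfr1) and 2 lower (1 of Fgfr2 and 1 of Fgf7), beside 2.71% and 2.50% of all probe sets, or 5.20% in either direction. By gene, 1 of 10 was higher and 2 were lower, beside 4.06% and 3.83% of 18193 genes, or 7.89% in either direction. All 4 calls lay among the 11 probe sets of these genes in the upper quartile of signal, where 15.2% of all probe sets were called; above the median signal the share was 10.1%. The quantile-normalized values of the groups did not overlap for 10 of the 21 probe sets, 5 with AA above and 5 with AA below control, beside 23.0% of all probe sets. Those 10 belong only to Fgfr1, Fgfr2, Fgfr3, Fgf7 and Spry1, with several probe sets of most. The share without overlap among bright probe sets of the whole array is not given. None of the 4 calls held in limma without the variance trend (adjusted p of 0.376 to 0.451 for the brightest probe sets of Fgf7, Fgfr1 and Fgfr2) or by the methods' t-test after Benjamini-Hochberg adjustment (0.315 to 0.362). The called probe sets of Fgfr1 and Fgfr2 carry an s or a suffix, which marks probes that can match several transcripts, so with such probe sets left out 0 higher calls and 1 lower call (Fgf7) were made. Because these are bulk cultures, fewer cells expressing a gene and less RNA per cell cannot be told apart. The table holds no detection calls, and 6 of the 21 probe sets had a mean below the median of all probe sets: that of Fgf2, all 4 of Spry4 and 1 of Spry2.

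**Figure D1:**
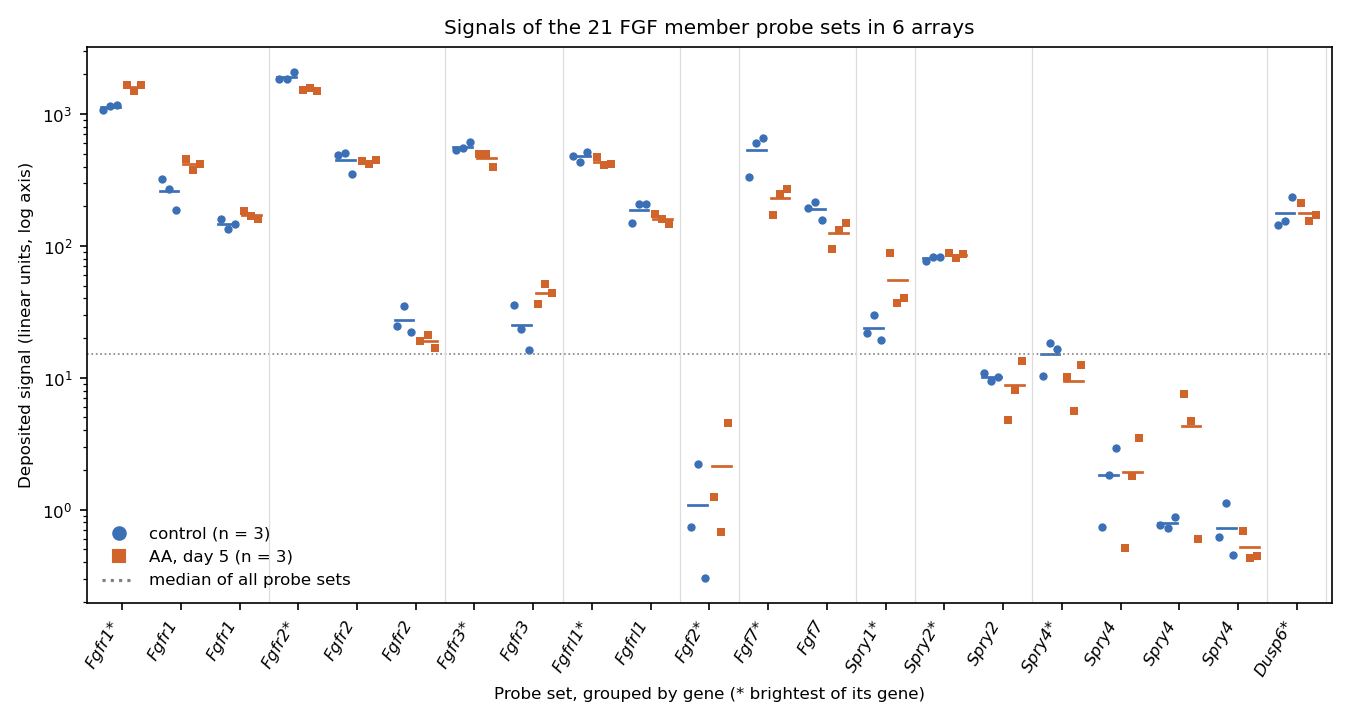
Deposited signal (log axis) of the 21 probe sets, grouped by gene, with circles for the 3 control cultures, squares for the 3 AA cultures and short lines at their means. An asterisk marks the brightest probe set of a gene; the AA points of the brightest Fgfr1 probe set (1499 to 1665) lie above, and those of the brightest Fgfr2 and Fgf7 probe sets below, all of their controls.

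Fgfr1, a receptor tyrosine kinase of mesenchymal cells, had a higher mean in AA cultures on all 3 of its probe sets. On the brightest the signals were 1079, 1156 and 1169 in control and 1665, 1499 and 1662 in AA replicates 1 to 3. The lowest AA value was above the highest control value, and the spread within each group was small beside the gap. The log2 fold change was 0.48 (SE, the standard error, 0.08, limma adjusted p = 0.0125), a fold of 1.40, and the replicate pairs gave 0.60, 0.33 and 0.52. A second probe set had signals of 320.4, 268 and 188 in control and 457, 374 and 417 in AA cultures. These groups did not overlap either, although control replicate 3 was the lowest and accounted for the widest pair. Its log2 fold change was 0.75 (SE 0.13, limma adjusted p = 0.0180), with pairs at 0.56, 0.52 and 1.16. The third went from 147 ± 12 to 171 ± 12.3 (SD, n = 3 each) and did not pass (log2 fold change 0.25, 95% interval 0.00 to 0.51, limma adjusted p = 0.285). With each replicate pair left out in turn, the brightest Fgfr1 probe set stayed between 0.43 and 0.56 with adjusted p of 0.0214 to 0.0406 from limma. After median centring in place of quantile normalization it did not pass (log2 fold change 0.45, limma adjusted p = 0.0618), whereas the second probe set passed there. The second probe set lost its call with 50 added to every signal (0.64, limma adjusted p = 0.0502) and, when no block was fitted, with any array but control replicate 1 left out (0.54 to 0.82, adjusted p of 0.0608 to 0.152).

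Fgfr2, the other receptor of calvarial osteoblasts, fell on its brightest probe set, and its probe sets disagreed. The splice forms of Fgfr1 and Fgfr2 that each probe set reads were not assigned here. On the brightest the signals were 1846, 1853 and 2074 in control and 1520.4, 1585 and 1486 in AA cultures. Every AA culture was below every control culture. Control was 1.29-fold above AA, at -0.37 on the log2 scale (SE 0.07, limma adjusted p = 0.0275). The next probe set had signals of 489, 505 and 350.1 in control and 437, 418 and 448 in AA cultures. Here the groups overlapped, since control replicate 3 was the lowest of all arrays, and the log2 fold change was 0.01 (95% interval -0.27 to 0.30, limma adjusted p = 0.979). The sign of that value turned with the scaling, to -0.03 on the signals as deposited and -0.08 after median centring. The dimmest had signals of 27.4 ± 6.83 and 19.1 ± 2.19 (SD, n = 3 each) and a log2 fold change of -0.54 (95% interval -1.14 to 0.06, limma adjusted p = 0.330), with AA below control on all arrays. The call on the brightest probe set was lost when any replicate pair was left out (log2 fold change -0.41 to -0.31, adjusted p of 0.0529 to 0.101 from limma), on the signals as deposited (-0.33, adjusted p = 0.0763) and after median centring (-0.38, adjusted p = 0.152). It was also lost when the mean of the Fgfr2 probe sets was tested (-0.30, limma adjusted p = 0.116), whereas the mean of the Fgfr1 probe sets passed (0.49, adjusted p = 0.0180).

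Fgfr1 and Fgfr2 were also set against each other within each array. The pair was chosen because both had been seen to move in opposite directions, so the ratio restates those differences as a description, with no test. The log2 ratio of the brightest Fgfr1 to the brightest Fgfr2 signal was -0.77, -0.68 and -0.83 in control and 0.13, -0.08 and 0.16 in AA cultures. Only the change of this ratio can be read, because signals of different probe sets are not on a common scale. Its mean went from -0.76 ± 0.07 to 0.07 ± 0.13 (SD, n = 3 each), a difference of 0.83. With each replicate pair left out in turn the difference was 0.75 to 0.95.

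**Figure D2:**
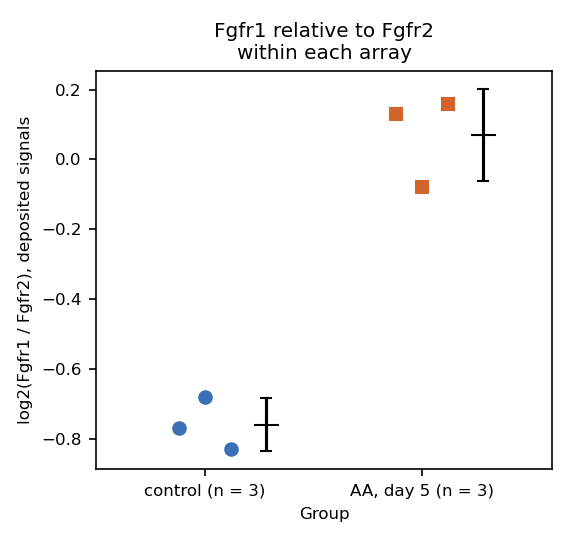
Log2 ratio of the deposited Fgfr1 to the Fgfr2 signal (brightest probe sets) on each array, circles for control and squares for AA cultures, with the mean and SD (n = 3) beside each group. The lowest AA array (-0.08) lies above the highest control array (-0.68); the height of a single point has no meaning, as different probes bind with different strength.

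Fgfr3, the receptor best known in growth plate cartilage, was read in opposite directions by its 2 probe sets, both short of the threshold. On the brighter its signals were 535, 549 and 613 in control and 501, 500 and 397 in AA cultures. All AA values were below control, but replicate pairs 1 and 2 differed by only -0.05 and -0.09 on the log2 scale and pair 3 by -0.62. On average AA differed from control by -0.25 on the log2 scale (95% interval -0.53 to 0.02, limma adjusted p = 0.321). The dimmer had signals of 35.5, 23.4 and 16.3 in control and 36.2, 51.0 and 43.7 in AA cultures. AA replicate 1 was barely above control replicate 1, and the log2 fold change was 0.85 (SE 0.30, limma adjusted p = 0.169). Without replicate 1 this probe set passed, at 1.27 (limma adjusted p = 0.0364).

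Fgfrl1, a receptor-like protein that binds FGFs but lacks the tyrosine kinase domain, had overlapping groups on both probe sets. Its signals were 434 to 518 in control and 412 to 472 in AA cultures on the brighter probe set, and 149 to 209 and 147 to 175 on the other. The log2 fold changes were -0.09 (95% interval -0.30 to 0.12, limma adjusted p = 0.687) and -0.18 (95% interval -0.54 to 0.18, adjusted p = 0.630).

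Fgf7, keratinocyte growth factor, a ligand made by mesenchymal cells that acts on the epithelial splice form of Fgfr2, had the smallest p of the 10 genes. On its brighter probe set the signals were 336, 602 and 662 in control and 173, 249 and 272 in AA cultures. Replicate 1 was the lowest of its group in both conditions, and the highest AA value was below the lowest control value. Control was 2.21-fold above AA, or -1.14 on the log2 scale (SE 0.10, limma adjusted p = 0.000982), with pairs at -0.91, -1.24 and -1.28. The dimmer probe set had signals of 195, 216 and 158 in control and 95.1, 132 and 149 in AA cultures. Its groups did not overlap, but control replicate 3 and AA replicate 3 nearly met, and the log2 fold change of -0.59 (SE 0.17) did not pass (limma adjusted p = 0.107). Without replicate 3 it passed, at -0.84 (limma adjusted p = 0.00765). The brighter probe set stayed between -1.26 and -1.07 with each pair left out (adjusted p of 0.000165 to 0.00676 from limma). With no replicate block its adjusted p was 0.0335, and leaving out any further array but control replicate 1 from that fit ended the call (log2 fold change -1.26 to -0.95, adjusted p of 0.0597 to 0.132 from limma).

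Fgf2, basic FGF, was at the floor of the array. Its single probe set had signals of 0.744, 2.23 and 0.302 in control and 1.24, 0.671 and 4.50 in AA cultures, all far below the median of all probe sets. These values scatter with no order, and the log2 fold change of 0.89 had a 95% interval of -1.74 to 3.53 (limma adjusted p = 0.765), so that no change in Fgf2 was detectable.

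The sequence before the annotated start of the genes that fell is shown so that the sites named can be seen in place. RefSeq's promoter table for GRCm38.p6 held a window for 8 of the 10 genes, and Fgfr1 and Spry4 had none. The 250 bases before the start of Fgf7 (chr2:126034408-126034657, plus strand) and of Fgfr2 (chr7:130266809-130267058, minus strand) are given 5′ to 3′, with capitals on any match to a motif searched:
Fgf7: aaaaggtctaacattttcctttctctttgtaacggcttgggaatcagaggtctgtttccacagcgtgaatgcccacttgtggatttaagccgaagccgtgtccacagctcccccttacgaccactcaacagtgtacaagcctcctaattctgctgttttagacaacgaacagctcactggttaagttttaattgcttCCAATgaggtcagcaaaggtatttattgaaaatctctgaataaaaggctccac
Fgfr2: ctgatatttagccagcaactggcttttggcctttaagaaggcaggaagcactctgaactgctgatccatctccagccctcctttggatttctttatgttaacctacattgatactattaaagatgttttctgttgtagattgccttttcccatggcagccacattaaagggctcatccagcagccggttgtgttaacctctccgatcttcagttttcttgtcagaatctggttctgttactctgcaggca
The motifs, searched on both strands, were the TATA box TATAAA, the CCAAT box CCAAT, the GC box GGGCGG, the ETS core GGAAGT, the RUNX site TGTGGT, the AP-1 site TGACTCA and the cAMP response element TGACGTCA. The 2 printed windows held 1 match in all, so no matches overlapped there. The Fgf7 window held a CCAAT box, as did 33.8% of 32851 such windows, and the Fgfr2 window held none of the 7. An ETS core, which 19.7% of all windows held, was found in that of Fgfrl1 alone, and a RUNX site (14% of all windows) in no window of these genes. The Fgf7 and Fgfr2 windows had GC contents of 43.6% and 44.0%, below the 52.4% median of all windows, and those of the other 6 genes ran from 56.4% to 73.6%. A match is a description of letters and no evidence of binding.

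**Figure D3:**
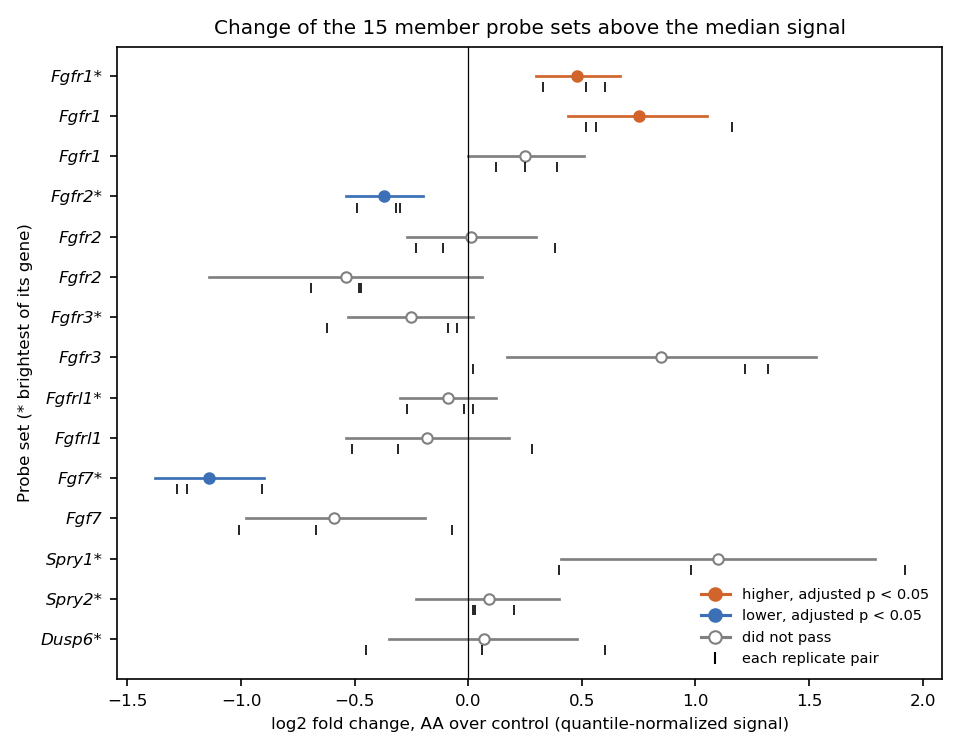
Log2 fold change, AA over control, of the 15 probe sets whose mean exceeded that of the median probe set, with its 95% interval from limma and, as ticks below, the value of each replicate pair. Filled points passed an adjusted p of 0.05; Fgf7 lies at -1.14 and -0.59, the 3 Fgfr1 probe sets at 0.25 to 0.75, and the intervals of Spry2 and Dusp6 span 0.

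Among the feedback genes, Spry1, an inhibitor of Ras and ERK signalling, had the largest difference of the probe sets above the median signal and did not pass. Its single probe set had signals of 22.0, 29.9 and 19.3 in control and 88.1, 37.2 and 40.3 in AA cultures. All AA values lay above control, but AA replicate 1 was more than the other AA cultures together on the linear scale, and the pairs gave 1.92, 0.40 and 0.98. Its log2 difference was 1.10 (SE 0.30, 95% interval 0.41 to 1.79, limma adjusted p = 0.0819). It passed after median centring (1.07, limma adjusted p = 0.0489) and when dim probe sets, those under the median, were left out of the test (1.10, adjusted p = 0.0415), and without replicate 1 it was 0.69 (adjusted p = 0.297).

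Spry2 and Dusp6, which are widely used as readouts of FGF and ERK activity, had values near 0. The brighter Spry2 probe set had signals of 77.2, 82.4 and 81.7 in control and 88, 80.5 and 86.1 in AA cultures. The log2 fold change was 0.09 (95% interval -0.23 to 0.40, limma adjusted p = 0.823), and the dimmer probe set, below the median of all probe sets, had -0.41 (95% interval -1.54 to 0.71). Dusp6 had signals of 145, 155 and 234 in control and 212, 155 and 170.4 in AA cultures on its single probe set. Its highest value was that of control replicate 3 and the groups overlapped. The log2 fold change of 0.07 (95% interval -0.35 to 0.48, limma adjusted p = 0.899) became -0.02 after median centring. These intervals leave room for a Dusp6 change of up to 0.48 on the log2 scale, as large as that called for the brightest Fgfr1 probe set (0.48). A shift of that size in Dusp6 could thus have gone undetected.

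Spry4 was dim on all 4 probe sets. The brightest had signals of 10.4, 18.5 and 16.6 in control and 10.2, 5.58 and 12.6 in AA cultures, with overlapping groups and a log2 fold change of -0.78 (95% interval -1.79 to 0.22, limma adjusted p = 0.413). The others had mean signals of 0.523 to 4.29 in either group and log2 fold changes of -0.49 to 1.77, of either sign, and none passed (adjusted p of 0.419 to 0.951 from limma).

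The wider FGF pathway was read through 6 lists with 112 genes in all, the 10 above included, of which 104 had a probe set named for them alone. By the brightest probe set of each, 4 were higher and 10 lower in AA cultures and 90 did not pass, a share of 13.5% beside 7.89% of all genes. Without the 10 genes above, 3 of 94 were higher and 8 lower, a share of 11.7%. The lists were chosen with earlier results of these data known, so the shares of lists here and below are descriptions and no test. The listed genes were brighter than most, with 73 of 104 above the median signal beside 10822 of all 18193 genes. Above that median 10.1% of all probe sets were called, which is a share of probe sets and not of genes. The share of genes there is not given. Over the whole array 7.89% of genes by their brightest probe set were called, beside 5.20% of probe sets. The median log2 fold change was -0.09 over the 104 genes and -0.02 over all genes. With 50 added to every signal, 2 were higher and 5 lower, and without replicate 2, 2 were higher and 3 lower. Of the 11 calls outside the 10 genes, Gpc4, Gpc6 and Egr1 kept theirs with each replicate pair left out. Sdc2 and Flrt3 lost theirs without replicate 2, Sdc3, Dusp7 and Ets1 without replicate 2 or 3, and Ncam1, Dusp10 and Myc whichever pair was left out.

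Of 18 secreted FGF ligands, 1 fell (Fgf7), none rose and 17 did not pass in limma, a share of 5.56% beside 7.89% of all genes. At an unadjusted p under 0.05, 1 was lower and 1 higher in limma, and 14 of the 18 ligands lay below the median signal. Fgf18, a ligand of bone and cartilage, was among those above it, with signals of 56.1 in control and 57.5 in AA cultures (log2 fold change 0.04, limma adjusted p = 0.939; named after its values were seen). None of the 4 intracellular FGF homologous factors, which do not signal as secreted ligands, passed in limma (1 higher and 0 lower at an unadjusted p under 0.05).

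Of 21 receptors, co-receptors and FGF-binding proteins, 2 rose, 6 fell and 13 did not pass, a share of 38.1% beside 7.89% of all genes. Fgfr1 and Fgfr2 are among these calls, and the list was chosen with earlier results known, so its share is a description. Of the 21 genes, 16 lay above the median signal, where 10.1% of all probe sets were called (a share of probe sets, not of genes). The list holds 8 glypicans and syndecans, core proteins that can carry heparan sulfate, grouped here after their values were seen. By the brightest probe set of each, Gpc4, Gpc6, Sdc2 and Sdc3 fell. Gpc1, Gpc3, Sdc1 (-0.10, limma adjusted p = 0.624) and Sdc4 (-0.12, adjusted p = 0.586) did not pass. Gpc4, a glypican, had signals of 2009, 1919 and 2020 in control and 1102, 1105 and 1148 in AA cultures, well apart in every array. Its log2 fold change was -0.86 (SE 0.07, limma adjusted p = 0.000637), and its other probe set also fell (-0.78, adjusted p = 0.00296). A second glypican, Gpc6, went from 534 ± 18.5 to 335 ± 9.96 (SD, n = 3 each), a log2 fold change of -0.63 with SE 0.08 (limma adjusted p = 0.00483), and passed on 2 of its 5 probe sets. The syndecan Sdc2 had a log2 fold change of -0.42 with SE 0.07 (limma adjusted p = 0.0115) on its brightest probe set, and -0.08, 0.28 and -0.60 on the other 3, which did not pass (adjusted p of 0.174 to 0.636). That call was lost on the signals as deposited (-0.37, limma adjusted p = 0.0509) and after median centring (-0.42, adjusted p = 0.132). The remaining calls of this list beside Fgfr1 and Fgfr2 were the syndecan Sdc3 (-0.36, limma adjusted p = 0.0475) and Flrt3, a membrane protein that can bind FGF receptors (-0.61, adjusted p = 0.0252), both named after their values were seen, and the adhesion molecule Ncam1 (0.42, adjusted p = 0.0381). Of the 3 Sdc3 probe sets only the brightest passed, and the others had -0.05 and 0.01 (limma adjusted p = 0.921 and 0.991). Flrt3 and Ncam1 lost their calls without the replicate block (adjusted p = 0.211 and 0.121 from limma). Ncam1 passed on 1 of its 7 probe sets. Its others above the median signal had 0.17, -0.16 and -0.74 (adjusted p of 0.143 to 0.687 from limma). Gpc1, the glypican with a higher mean in AA cultures, had a log2 fold change of 0.28 and did not pass (limma adjusted p = 0.116; named after its values were seen).

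None of 16 measured genes between the receptor and ERK passed in limma in either direction (1 higher and 3 lower at an unadjusted p under 0.05), nor did any listed gene by the methods' t-test after Benjamini-Hochberg adjustment. They had log2 fold changes of -0.40 to 0.38. Of 23 feedback inhibitors, 1 rose, 1 fell and 21 did not pass, a share of 8.7% beside 7.89% of all genes. Dusp7, a phosphatase that inactivates ERK in the cytoplasm, had signals of 111, 99.1 and 86.0 in control and 149.6, 150.1 and 143 in AA cultures on its brightest probe set. The AA values were closely grouped above control, with a log2 fold change of 0.61 with SE 0.12 (limma adjusted p = 0.0267), and a second of its 3 probe sets also passed (0.63, adjusted p = 0.0248). Dusp10, a phosphatase that acts mainly on the stress kinases p38 and JNK, had signals of 146, 203 and 224 in control and 95, 144 and 142 in AA cultures. Its log2 fold change was -0.56 (SE 0.11, limma adjusted p = 0.0266), a call that rests on the replicate pairs and was lost without the replicate block (adjusted p = 0.179). Dusp7 did not pass after median centring (0.53, limma adjusted p = 0.0537) or with 50 added to every signal (0.43, adjusted p = 0.0556).

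Of 22 ETS factors and immediate-early genes downstream of ERK, 1 rose, 2 fell and 19 did not pass. This was a share of 13.6% beside 7.89% of all genes. Of the 22 genes, 20 lay above the median signal, where 10.1% of all probe sets were called (again a share of probe sets, not of genes). Egr1, an immediate-early zinc finger factor, had signals of 609, 401 and 377 in control and 952, 687 and 709.9 in AA cultures. Replicate 1 was the highest of its group in both conditions and the groups did not overlap. AA exceeded control by 0.80 on the log2 scale (SE 0.09, limma adjusted p = 0.00223), although with no block the call was lost when any array but control replicate 1 was left out (0.65 to 0.88, adjusted p of 0.0854 to 0.153). Ets1, a founding ETS factor, had a log2 fold change of -0.61 (limma adjusted p = 0.0462) and the growth regulator Myc one of -0.33 (adjusted p = 0.0452). Ets1 lost its call without the replicate block (adjusted p = 0.0507) and Myc on the signals as deposited (limma adjusted p = 0.0551). Etv5, an ETS factor widely used as an FGF readout, had a log2 fold change of 0.27 and did not pass (limma adjusted p = 0.653), and Etv4 was near the floor at signals of 2.86 and 2.57. Ccnd1, a cyclin of the G1 phase, passed on 2 of its 3 probe sets (0.52 and 0.79, adjusted p = 0.0222 and 0.0108) and not on its brightest (0.28, limma adjusted p = 0.0735). Etv5, Etv4 and Ccnd1 were named after their values were seen.

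**Figure D4:**
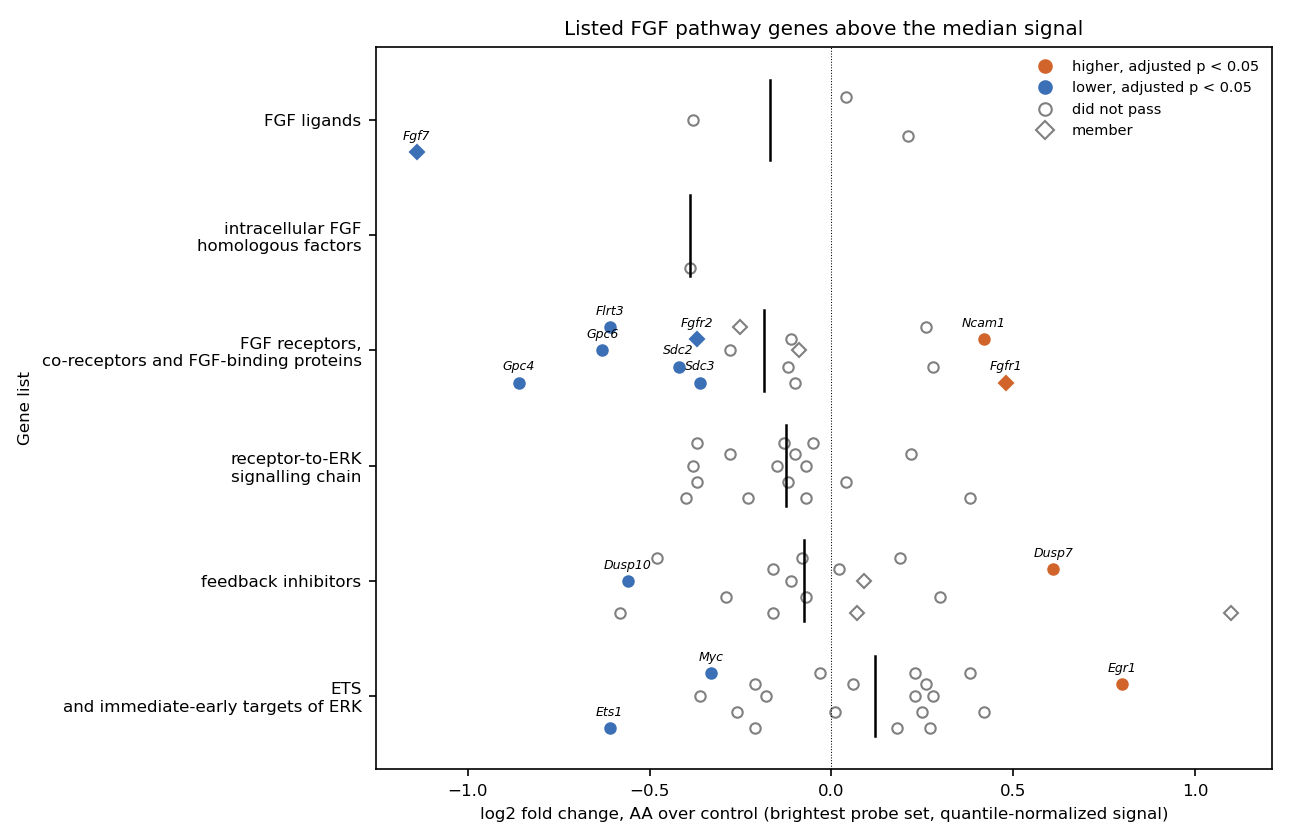
Log2 fold change, AA over control, of the listed genes whose brightest probe set exceeded the median signal, 1 point per gene, diamonds for the 10 genes of the opening and circles for the rest, with a vertical bar at the median of the points of each list (-0.19 for receptors and co-receptors, 0.12 for the ERK targets). Filled, named points passed an adjusted p of 0.05; the glypicans Gpc4 and Gpc6 lie at -0.86 and -0.63 and no gene of the chain from the receptor to ERK passed.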

How the data were processed

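RNA of 3 control and 3 AA cultures was hybridized to 6 arrays, 1 per culture. The deposited values are linear intensity values, 1 per probe set and array, which the authors' processing notes link to MAS5. The quantile normalization and GC-RMA of the paper's methods are not in these values. From 45101 probe sets, 64 control probe sets were set aside. The log2 intensity of the other 45037 was quantile-normalized and fitted with limma 3.58.1 in R 4.3.3, with the replicate number as a block since the methods name paired tests, a variance trend, 2 residual degrees of freedom and 6.18 from the prior. The paper speaks both of triplicate wells and of triplicate experiments, so the p-values may measure only the spread between wells. Gene symbols came from GEO's annotation of the array, with 1 symbol on 34945 probe sets, more on 932 and no symbol on 9160. The Entrez identifiers changed 0 symbols in RefSeq's GRCm38.p6 table. A gene was read by the brightest probe set naming it alone. The 10 genes, the lists and the rule for named genes (the 10 genes, and per list up to 3 per direction with the smallest p among those called) were chosen with earlier results of these data known. The fit was also run on simulated data with independent noise and no replicate effect. Its outcome is not given here and is no evidence for the calls. Alternatives were no block, deposited scale, median centring, an added 50, filters on dim probe sets, no variance trend, the methods' t-test and thresholds, left-out pairs and arrays, and other choices of probe set. The number of arrays limits the precision.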

Additional observations from a re-analysis of the deposited data

How the results depend on the processing

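Over all probe sets, samples with the same replicate number did not deviate together (correlations of 0.017, 0.004 and 0.010, beside -0.016 to 0.007 for different numbers). The numbers are thus not shown to pair the cultures. Dim probe sets enter these correlations with their scatter near the floor, so the values cannot decide whether brighter genes are paired. With no replicate block the 10 genes again had 2 probe sets higher and 2 lower (Fgfr1 adjusted p = 0.00867 and 0.0446, Fgfr2 0.0179 and Fgf7 0.0335, from limma), the listed genes 3 higher and 10 lower, and all probe sets 1089 higher and 1039 lower. For the probe sets of the 10 genes, higher and lower calls (2 and 2) became 2 and 1 on the signals as deposited, 1 and 2 with 50 added, and 0 and 1 among probe sets with no s, x or a suffix. The listed genes (4 higher and 10 lower) became 2 and 8 after median centring, 2 and 5 with 50 added, 3 and 5 at the thresholds of the methods (p under 0.01 and a fold of 1.5) applied to limma, and 4 and 4 when a gene's probe sets were averaged. All probe sets (1219 and 1124) became 787 and 651 with 50 added. Without a variance trend limma called 0 probe sets in all, 0 of the 10 genes' and 0 listed genes, in either direction; at an unadjusted p under 0.05 it had 2587 higher and 2616 lower in all, 2 and 2 of the 10 genes' and 3 and 9 listed. The methods' t-test at those thresholds called 363 and 345 in all, 0 and 0 of the 10 genes' and 0 and 2 listed. After Benjamini-Hochberg it called 0 in each, against 2612 and 2827, 1 and 3, and 4 and 14 at an unadjusted p under 0.05.

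With each replicate pair left out in turn, the 10 genes' probe sets had 2 to 3 higher and 1 to 2 lower calls, the listed genes 2 to 3 and 3 to 8, and all probe sets 556 to 1169 and 410 to 994, the lowest in all without replicate 2. With no block and 1 array left out, the 10 genes' calls were 3 and 2 without control replicate 1, 1 and 1 without control replicate 3 and 1 and 0 without any other array. The listed genes then had 1 to 4 higher calls and 7, 3 and 6 lower calls without control replicates 1, 2 and 3, and 3, 2 and 3 without AA replicates 1, 2 and 3. All probe sets had 1160, 496 and 742 higher and 898, 371 and 561 lower calls without control replicates 1, 2 and 3, and 468, 380 and 632 higher and 488, 339 and 548 lower without AA replicates 1, 2 and 3. Fgfr1 (brightest) did not pass after median centring (0.45), nor, at 0.48, without the trend, by the t-test or at the fold threshold. Fgfr2 did not pass as deposited (-0.33), after median centring (-0.38) or, at -0.37, without the trend, by the t-test or at the fold threshold. It ranged from -0.41 to -0.31 with a pair left out, and unblocked it did not pass without control replicate 2 (-0.39) or AA replicates 1, 2 and 3 (-0.36, -0.39 and -0.36). Fgf7 did not pass, at -1.14, without the trend or by the t-test, nor, unblocked, without control replicates 2 and 3 (-1.02 and -0.96) or AA replicates 1, 2 and 3 (-0.95, -1.21 and -1.26). Spry1 passed after median centring (1.07) and, at 1.10, above the median signal and at the methods' thresholds on limma. The cause was not tested.

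Signs turned in values that did not pass. The second Fgfr2 probe set (0.01) was -0.03 as deposited, -0.08 after median centring, -0.17 to 0.13 with pairs left out and, unblocked, -0.16 without control replicate 3 and 0.00 without AA replicate 3. Dusp6 (0.07) was -0.02 after median centring -0.19 to 0.33 with pairs left out and, unblocked, -0.06 and -0.02 or -0.07 without single arrays. With pairs left out Fgf2 ranged from -0.55 to 2.16 and the dimmer Spry2 probe set from -0.76 to 0.07, and a dim Spry4 probe set (-0.17) was 0.00 with 50 added, -0.34 to 0.12 with pairs left out and, unblocked, 0.32 and 0.62 without single arrays. For dim probe sets, signal near the floor limits what can be read.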
